A study of Mus musculus with 2 samples.

Results

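The genes described here serve the NRF2 antioxidant response and the glutathione and thioredoxin systems of mouse macrophages. The 40 members were taken from a list of gene symbols, and the rule uses no measured value. The list was, however, chosen with earlier results of these data known. The members are 40 of 55536 annotated genes in the deposited tables, and each symbol matched 1 gene. They fall into 8 roles: 6 regulators of NRF2, 5 genes of glutathione synthesis and supply, 7 glutathione-using enzymes, 5 genes of the thioredoxin system, 7 peroxiredoxin and sulfiredoxin genes, 3 superoxide dismutase and catalase genes, 3 quinone and biliverdin reductases and 4 enzymes of the pentose phosphate pathway. All 40 passed the filter on low counts used for the ratio between libraries, which asked for 10 expected counts on average.

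The RNA came from bone marrow-derived macrophages of C57BL/6J mice, phagocytes grown in culture from marrow, and was sequenced as polyA plus libraries. The cells had been given 100 ng/ml lipid A for 12 h, kept without it for 12 h, and given 100 ng/ml lipid A again for 120 min before RNA was taken. Lipid A is the part of bacterial lipopolysaccharide that the TLR4 receptor complex binds; the labels call the agent lipid A in one field and lipoprotein A in others. The study has 1 group of 2 libraries, replicates 1 and 2, which share a donor identifier, so the spread between them may be technical. No untreated sample was analysed here, no condition was compared with another, and no test was run. Sex and age are not given.

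NRF2, the product of Nfe2l2, is a transcription factor that KEAP1 holds in the cytoplasm and hands to a ubiquitin ligase. Oxidants and electrophiles modify cysteines of KEAP1, after which NRF2 accumulates, pairs with a small MAF protein and binds antioxidant response elements in genes of glutathione, thioredoxin, quinone and NADPH metabolism. Glutathione and thioredoxin carry electrons from NADPH to peroxides and oxidised proteins through glutathione peroxidases, glutaredoxins and peroxiredoxins. Macrophages use these systems while they make superoxide and nitric oxide.

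The core of the antioxidant response element, TGACNNNGC, was searched on both strands of promoters, here 300 bases from 250 before to 50 after a RefSeq transcription start (GRCm38.p6). It was present for 12 of 37 members with a promoter entry (32.4%), against 14.0% of 27025 genes. Gclc, Gsr and Prdx6 had no entry, and 7 members had more than 1. The matches of Pgd and Srxn1 lie after the start, at bases 3 to 11 and 28 to 36. The entries that hold the matches of Pgd, Txnrd1 and G6pdx lie wholly inside the annotated gene, and not upstream of it. The matches are shown because this core belongs to the element that NRF2 is known to recognise. They are a description of letters and not of binding, and none was tested as a site. Each line runs 5′ to 3′ along the strand that reads TGACNNNGC, with the match in capitals and up to 10 bases on each side.
Nfe2l2, chr2:75704885-75704913, minus strand: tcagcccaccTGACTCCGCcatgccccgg
Mafg, chr11:120633751-120633779, plus strand: ctcgccgggtTGACCGTGCtcctgcagag
Mafk, chr5:139791513-139791541, minus strand: tccccagtacTGACACCGCttccgggatc
Gclm, chr3:122245413-122245441, minus strand: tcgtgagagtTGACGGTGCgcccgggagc
Mgst1, chr6:138140461-138140489, minus strand: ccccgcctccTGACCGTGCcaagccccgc
Txnrd1, chr10:82859104-82859132, minus strand: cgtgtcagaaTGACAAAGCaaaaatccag
Prdx1, chr4:116685456-116685484, minus strand: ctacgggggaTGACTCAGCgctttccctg
Srxn1, chr2:152105542-152105570, minus strand: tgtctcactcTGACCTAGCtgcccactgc
Sod1, chr16:90220696-90220724, minus strand: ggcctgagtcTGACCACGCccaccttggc
Blvra, chr2:127070598-127070626, minus strand: ggcggagcctTGACCGAGCaattcccgtg
G6pdx, chrX:74428919-74428947, plus strand: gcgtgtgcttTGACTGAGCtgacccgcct
Pgd, chr4:149166061-149166089, minus strand: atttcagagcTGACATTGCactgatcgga
The whole promoter of Prdx1, the member of this set with the highest level, is given on its own strand (chr4:116685349-116685648, plus strand). The match is in capitals and reads on the other strand.
Prdx1 promoter: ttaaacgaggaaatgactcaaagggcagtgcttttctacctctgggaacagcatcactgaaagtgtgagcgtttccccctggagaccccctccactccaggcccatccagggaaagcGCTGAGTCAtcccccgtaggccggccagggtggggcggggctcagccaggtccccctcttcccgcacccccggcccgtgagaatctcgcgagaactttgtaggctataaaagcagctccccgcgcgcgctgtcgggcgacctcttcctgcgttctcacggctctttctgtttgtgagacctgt

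Replicate 1 had 45377715 expected counts and replicate 2 had 32112416, which puts a floor of 3 reads at 0.0661 and 0.0934 CPM. The 40 genes held 322391 reads in replicate 1, 0.711% of those on annotated genes (exact 95% interval 0.709 to 0.713%). They held 249468 reads in replicate 2, 0.777% (0.774 to 0.781%). Intervals and floors cover counting error only. All 8 macrophage markers were at 10 TPM or more in both libraries, with summed levels of 16307 and 17710 TPM. Of 10 neutrophil markers none reached 10 TPM in both and their sums were 63.6 and 6.58 TPM, with Ly6g and Retnlg at 0 reads. Of 6 megakaryocyte and platelet markers only Pf4 reached 10 TPM in both, and their sums were 277 and 103 TPM. Summed levels were 1.74 and 0.340 TPM for erythroid markers, with hemoglobin genes at 0 reads, 1.09 and 0.410 TPM for T cell, 1.99 and 1.60 TPM for B cell and 0.410 and 0.01 TPM for NK cell markers. They were 5.23 and 4.19 TPM for dendritic cell and 0.750 and 0.910 TPM for stromal markers, and all 5 mast cell and basophil markers were at 0 reads. The part of these cells in the differences between libraries given below was not tested. In bulk RNA, fewer cells of a type and less RNA per cell cannot be told apart.

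Nearly all of the genes were expressed, and many were abundant. A level of at least 1 TPM (a length-corrected abundance) in both libraries was reached by 38 of the 40, against 44.4% of 22028 protein-coding genes. At least 10 TPM was reached by 33, against 27.2%, and at least 100 TPM by 16, against 5.20%. Because the members were chosen with earlier results of these data known, these contrasts are a description only. The median of the mean level was 81.2 TPM over members and 18.2 TPM over the 9773 protein-coding genes detected at 1 TPM in both. The exceptions were Slc7a11 and Nqo1, each under 1 TPM in replicate 1. No member differed 2-fold or more in mean level between the gene table and the second quantification. The 5 members with the most reads held 51.0% of all member reads in replicate 1 and 59.8% in replicate 2.

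**Figure D1:**
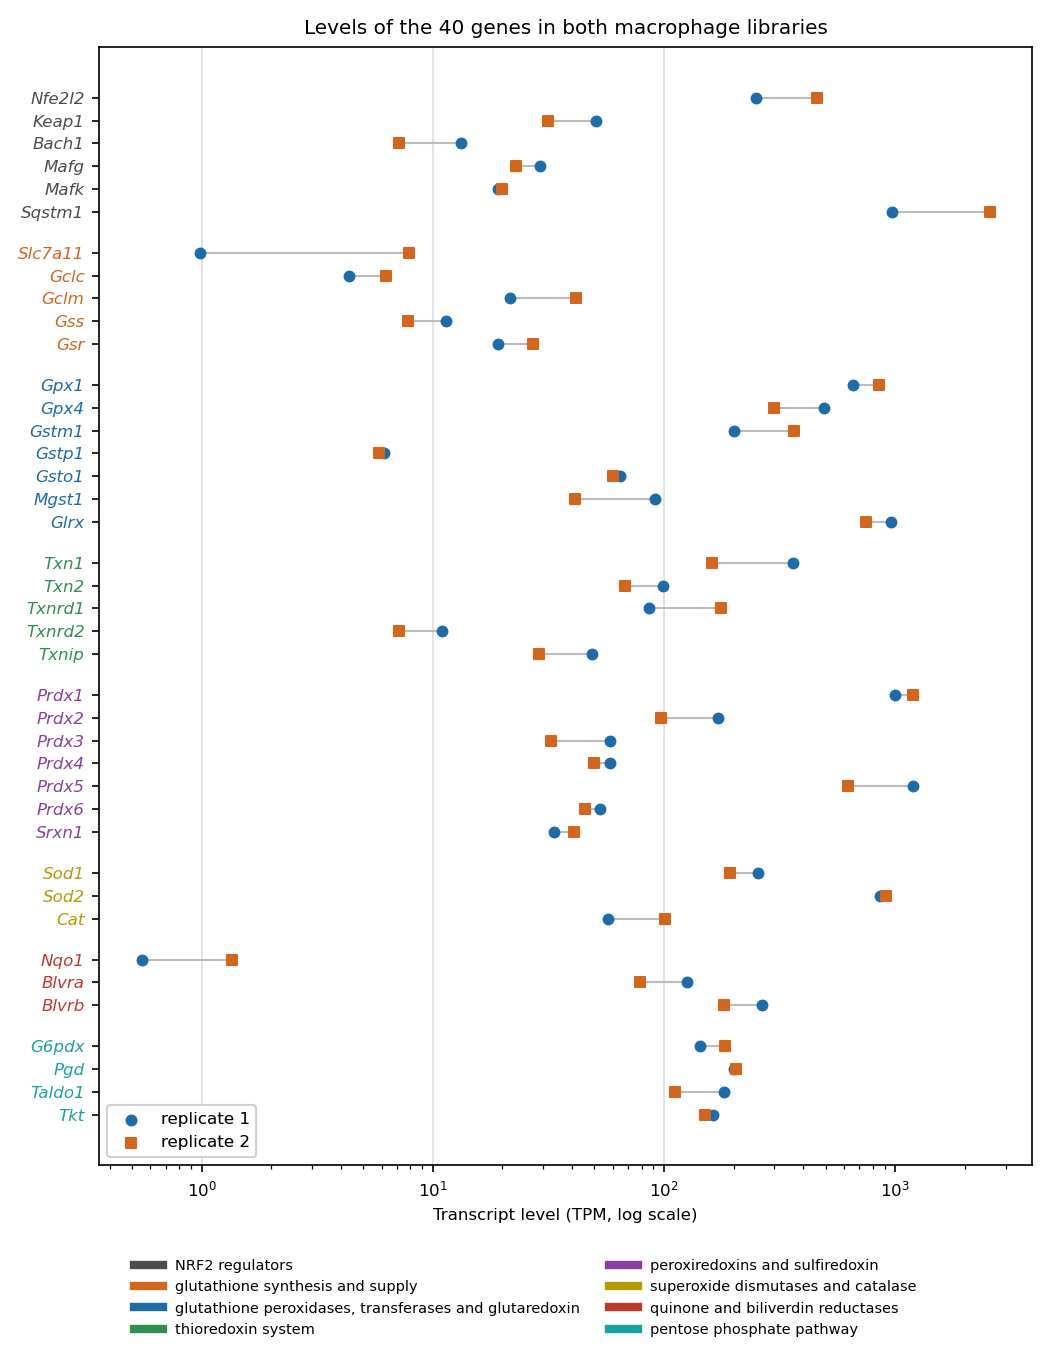
Transcript level (TPM, log axis) of each of the 40 genes in replicate 1 (circles) and replicate 2 (squares), grouped by role, with grey lines at 1, 10 and 100 TPM. Levels run over 3 decades and more, with Nqo1 lowest at 0.550 and 1.36 TPM and Sqstm1 highest in replicate 2 at 2558 TPM.

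The regulators of NRF2 differed widely in level. Nfe2l2 (ENSMUSG00000015839.6, chr2:75675513-75704641, minus strand, mm10), which encodes NRF2, was at 250 and 460 TPM in replicates 1 and 2. Keap1, its cytoplasmic inhibitor, was at 50.8 and 31.6 TPM. Transcripts of the factor thus outnumbered those of its inhibitor in both libraries, and the ratio between these libraries ran in opposite directions for the pair. Bach1, a repressor that competes for the same DNA elements and is released by haem, was low at 13.3 and 7.13 TPM. The small MAF partners Mafg and Mafk were close to each other, with Mafg at 29.0 and 23.0 TPM and Mafk at 19.2 and 20.0 TPM. Mafg overlaps Sirt7 on the same strand, which had 50.5 and 33.8 TPM, so its level is uncertain. Sqstm1 (chr11:50199366-50210827, minus strand) encodes p62, an autophagy receptor that binds KEAP1 and takes it to the autophagosome. It had 964 TPM in replicate 1 and 2558 TPM in replicate 2, the highest mean of all 40 genes at 1761 ± 1128 TPM (SD, n = 2). By the ratio of counts given below, Sqstm1 was 1.98-fold higher in replicate 2. The short form Sqstm1-206, described below, made up 1.16 and 642 TPM of its level in replicates 1 and 2, and Sqstm1-203 made up 6.00 and 139 TPM. The levels of Sqstm1 and Nfe2l2 were both higher in replicate 2.

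The 5 genes that supply and make glutathione had mean levels from 4.45 TPM for Slc7a11 to 31.6 TPM for Gclm. Slc7a11 (chr3:49892526-50443614, minus strand) encodes xCT, the light chain of the cystine importer that provides cysteine for glutathione. It was at 0.980 TPM in replicate 1, from 264 reads, and at 7.91 TPM in replicate 2, from 1481 reads. Slc3a2, which is not a member, encodes the heavy chain of the same importer and of other transporters and was at 530 and 621 TPM. The light chain was therefore scarce beside the heavy chain in both libraries, and the 2 libraries were far apart for the light chain. A near-identical copy of Slc7a11, AC157548.1, held 95 and 17 reads, which is 26.6% and 1.12% of the reads of both together.

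Glutamate-cysteine ligase joins glutamate and cysteine in the step that limits glutathione synthesis. Its catalytic subunit Gclc was at 4.33 and 6.27 TPM. Its modifier subunit Gclm, which raises the activity of the catalytic subunit, was at 21.6 and 41.5 TPM. The modifier transcript exceeded the catalytic one in each library, and the levels of both were higher in replicate 2. By the ratio of counts given below, Gclm was only 1.29-fold higher there. The short form Gclm-205, described below, made up 0 and 10.8 TPM of its level in replicates 1 and 2. Gss, which adds glycine in the last step, was at 11.4 and 7.83 TPM, and it overlaps Acss2 on the opposite strand, at 12.4 and 9.50 TPM. Whether counting used strand is not given in the sources used here, so reads of overlapping genes are uncertain. Gsr, which reduces oxidised glutathione with NADPH, was at 19.1 and 27.1 TPM. No gene of this group reached 100 TPM, and the 5 together summed to 57.4 and 90.5 TPM.

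The enzymes that use glutathione were far more abundant, with sums of 2465 and 2363 TPM for 7 genes. Gpx1, the cytosolic peroxidase that reduces hydrogen peroxide, was at 655 and 849 TPM. Gpx4, which reduces lipid hydroperoxides in membranes and restrains ferroptosis, was at 492 and 298 TPM, and its near-identical copies held 5.25% and 2.94% of the joint reads. Glrx, the glutaredoxin that removes glutathione from proteins, was at 956 and 746 TPM. These 3 genes had the highest levels of the group in replicate 1. Of the transferases, which couple glutathione to electrophiles, Gstm1 was highest at 201 and 363 TPM, which in replicate 2 was above Gpx4. Gstp1, by contrast, was at 6.17 and 5.86 TPM, from 104 and 68 reads. Gsto1, an omega-class transferase, was at 64.3 and 60.1 TPM. Mgst1, a membrane-bound transferase, was at 91.5 and 41.4 TPM. The order of the transferases was not even between libraries, since Gsto1 was below Mgst1 in replicate 1 and above it in replicate 2.

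In the thioredoxin system, Txn1 (chr4:57943373-57956411, minus strand), the cytosolic thioredoxin, was at 361 and 161 TPM. Its reductase Txnrd1, a selenoprotein that takes electrons from NADPH, was at 86.5 and 176 TPM. Thioredoxin transcripts exceeded those of the reductase in replicate 1 and were at a similar level in replicate 2. The mitochondrial pair was lower, with Txn2 at 99.0 and 67.7 TPM and its reductase Txnrd2 at 11.0 and 7.16 TPM. Txnip, which binds and inhibits thioredoxin, was at 48.9 and 28.9 TPM. All of these genes but Txnrd1 had the higher level in replicate 1.

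Peroxiredoxins, which reduce peroxides with electrons from thioredoxin, ranged from very abundant to moderate. Prdx1, a cytosolic member, was at 1000 and 1190 TPM, a mean of 1095 ± 134 TPM (SD, n = 2). Prdx5, found in mitochondria, peroxisomes and cytosol, was at 1196 and 627 TPM. These 2 genes stood well above the other peroxiredoxins in both libraries. Prdx2, the other main cytosolic member, was at 171 and 97.3 TPM, and it overlaps Junb on the opposite strand, which had 231 and 184 TPM. The mitochondrial Prdx3 was at 58.6 and 32.5 TPM. Prdx4, the member of the endoplasmic reticulum, was at 58.6 and 50.0 TPM. Prdx6, which uses glutathione in place of thioredoxin, was at 52.6 and 45.5 TPM. These last 3 genes lay close together, and their order could not be told from 2 libraries. Srxn1, the sulfiredoxin that repairs overoxidised peroxiredoxins, was at 33.4 and 40.8 TPM and was the only gene of the group with a higher normalised count in replicate 2.

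Superoxide dismutases turn superoxide into hydrogen peroxide, and catalase breaks the peroxide down. The mitochondrial enzyme Sod2 was at 863 and 912 TPM, a mean of 888 ± 34.8 TPM (SD, n = 2). The cytosolic enzyme Sod1 was at 255 and 192 TPM. By the TPM of the whole gene, Sod2 stood above Sod1 in both libraries. By coding transcript the order was reversed, with Sod2-201 at 82.6 and 78.6 TPM and Sod1-201 at 254 and 192 TPM. Cat, the peroxisomal catalase, was at 57.4 and 101 TPM.

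Nqo1 (chr8:107388225-107403206, minus strand) encodes a quinone reductase that is widely used as a marker of NRF2 activity. It was the lowest of the 40 genes, at 0.550 TPM in replicate 1 and 1.36 TPM in replicate 2, from 22 and 37 reads. Its promoter entry held no TGACNNNGC, which says only that these letters are absent from that window. The biliverdin reductases were abundant. Blvra, which makes bilirubin from the product of haem oxygenase, was at 126 and 78.5 TPM, and Blvrb was at 266 and 182 TPM. Hmox1, the inducible haem oxygenase upstream of Blvra, was at 417 and 339 TPM. Nqo1 was thus far below the other reductases of this group in both libraries.

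The pentose phosphate pathway supplies NADPH to both glutathione and thioredoxin reductases. All 4 members were above 100 TPM in both libraries. G6pdx, the first and rate-limiting enzyme, was at 143 and 184 TPM, and Pgd, the second NADPH-producing step, was at 200 and 204 TPM. In the non-oxidative branch Taldo1 was at 181 and 112 TPM and Tkt at 163 and 151 TPM. The levels of Pgd and Tkt were close in the 2 libraries. G6pdx overlaps Ikbkg on the opposite strand, at 17.8 and 23.8 TPM.

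Other genes of these pathways, 95 in 7 lists, were read in the same way. Of these, 79 were at 1 TPM or more in both libraries, 52 at 10 TPM or more and 13 at 100 TPM or more. The shares over 22028 protein-coding genes were 44.4%, 27.2% and 5.20%. These lists too were chosen with earlier results of these data known. The 3 highest of each list follow. Among regulators, Nfe2l1, a factor related to NRF2, was at 136 and 248 TPM. Trim21, a ubiquitin ligase that modifies p62, was at 56.9 and 108 TPM, and Cul3, the scaffold of the KEAP1 ligase, was at 54.3 and 94.8 TPM. All 3 had higher levels in replicate 2. Among other NRF2 targets, the ferritin heavy chain Fth1 was at 46728 and 43792 TPM, the ferritin light chain Ftl1 at 17468 and 11129 TPM, and the scavenger receptor Marco at 307 and 519 TPM. Of the other glutathione genes the highest after Slc3a2 were Esd, which hydrolyses S-formylglutathione, at 332 and 236 TPM and Gpx3, the secreted peroxidase, at 118 and 279 TPM. Among thioredoxin-fold and methionine sulfoxide genes Msrb1, a selenoprotein that repairs oxidised methionine, was at 229 and 175 TPM. Txndc17, a thioredoxin-related protein, was at 124 and 139 TPM, and Txnl1, another, was at 62.6 and 79.6 TPM.

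Nadk, the cytosolic kinase that makes NADP from NAD, led the other NADPH genes at 199 and 161 TPM, ahead of the NADPH-producing isocitrate dehydrogenase Idh1 at 79.9 and 62.3 TPM and of Mthfd2, a mitochondrial folate enzyme, at 49.9 and 55.0 TPM. The constitutive haem oxygenase Hmox2 was at 261 and 212 TPM. Park7, a peroxide-sensitive chaperone, was at 104 and 71.3 TPM, and Ccs, the copper chaperone of Sod1, was at 22.7 and 14.4 TPM. Gpx1, Gpx4 and the thioredoxin reductases need selenocysteine, and of the 6 genes that make and insert it all were above 1 TPM in both libraries. Sephs2, which makes selenophosphate, was at 103 and 91.1 TPM, Trnau1ap at 28.0 and 22.5 TPM and the elongation factor Eefsec at 10.5 and 12.1 TPM.

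The libraries were then set against each other, as the only measure of how far a level can be relied on. The ratio of replicate 1 over replicate 2 used expected counts scaled by edgeR's trimmed mean of M-values, with a prior of 0.5 reads, and it compares libraries and not conditions. A ratio of 2-fold or more was taken as a rule of size. It was met by 3 of the 40 members (7.50%), against 11.3% of 12552 genes. Txn1 was 2.20-fold higher in replicate 1, a log2 ratio of 1.14, as were 5.97% of all genes by 2-fold or more. Slc7a11 was 8.33-fold higher in replicate 2 and Nqo1 2.48-fold, with log2 ratios of -3.06 and -1.31, as were 5.34% of all genes by 2-fold or more. The counts of Slc7a11 leave out the reads given to its near-identical copy, 95 in replicate 1 and 17 in replicate 2. The share of members past 2-fold was below that of all genes by the ratio of counts, but not by 2 other ratios. By the ratio of TPM values 6 members passed (15.0%), against 14.1% of all genes, and with a trend on GC content and length removed 6 passed (15.0%), against 9.90%. The median distance between libraries was 1.50-fold over members and 1.29-fold over all genes tested. Sqstm1 lay just inside the rule with a log2 ratio of -0.98, and the ratio of its TPM values was larger, at -1.41.

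**Figure D2:**
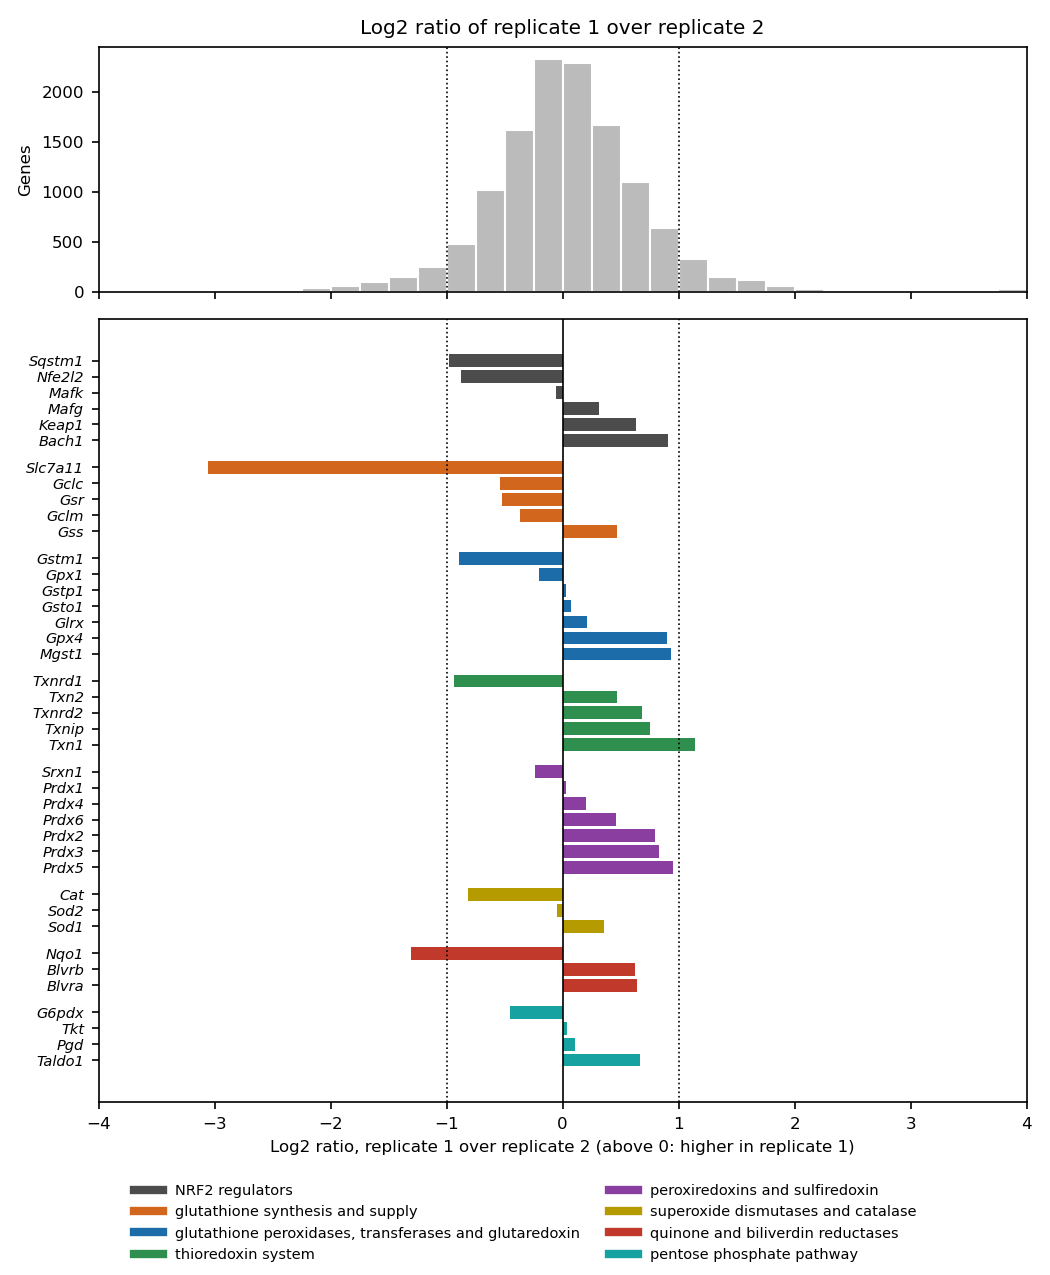
Log2 ratio of replicate 1 over replicate 2 for all 12552 tested genes (top, number of genes per bin of 0.25, the outermost bins holding all beyond 4) and for the 40 genes by role (bottom, bars), with dotted lines at 2-fold. Bars past the lines belong to Slc7a11, Nqo1 and Txn1, and 25 of the 40 bars point to replicate 1.

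By direction, 25 members were higher in replicate 1 and 15 in replicate 2, and their median log2 ratio was 0.15, against 6432 and 6120 genes and 0.02 over all genes tested. The roles were not alike. Of the 7 peroxiredoxin and sulfiredoxin genes 6 were higher in replicate 1, with a median of 0.46 and values from -0.24 for Srxn1 to 0.95 for Prdx5. Of the 5 thioredoxin genes 4 were higher in replicate 1, with a median of 0.68 and Txnrd1 apart at -0.94. Of the 5 genes of glutathione synthesis and supply 4 were higher in replicate 2, with a median of -0.52 and Gss apart at 0.47. The 6 regulators were split evenly, with Sqstm1 and Nfe2l2 at -0.98 and -0.88 and Bach1 and Keap1 at 0.91 and 0.63. The glutathione-using enzymes had 5 genes higher in replicate 1 and 2 in replicate 2, from -0.89 for Gstm1 to 0.93 for Mgst1. In the pentose phosphate pathway 3 of 4 were higher in replicate 1, with 2 of them, Pgd at 0.11 and Tkt at 0.04, close to 0. The direction of Mafk and Sod2 turned with scaling to library totals and that of Prdx1 and Pgd with the ratio of TPM values. The 12 members with TGACNNNGC in the promoter had 6 in each direction and a median of -0.01. The 25 with an entry but no match had 18 higher in replicate 1 and 7 in replicate 2, with a median of 0.47. Transcript length, with which the ratio moved as described below, was not held equal between members with and without a match. Its part in this contrast was not tested, and the same split over all genes was not made.

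Of the 85 other pathway genes with enough reads, 53 were higher in replicate 1 and 32 in replicate 2, with a median of 0.13. Over all genes tested the split was 6432 and 6120, with a median of 0.02. Of the 85, 4 were 2-fold or more higher in replicate 1 and 3 in replicate 2, 7 in all. The shares over all genes tested were 5.97% and 5.34%, and 11.3% in either direction. Of the 7, those higher in replicate 1 were the scavenger receptor Cd36, the transferases Gstt2 and Gstk1, and Chac1, which degrades glutathione. Those higher in replicate 2 were Gpx3, the malic enzyme Me1 and the aldehyde oxidase Aox1. Their log2 ratios ran from 1.22 for Gstk1 to 1.56 for Cd36, and from -1.74 for Me1 to -1.26 for Gpx3. Apart from Gpx3 they were named, like Hmox1, after their values were seen.

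Transcript length moved with the ratio. The 25 members with a mean transcript length under 2000 bases had a median log2 ratio of 0.46, with 19 higher in replicate 1 and 6 in replicate 2. The 15 longer members had a median of -0.24, with 6 and 9. Over all genes tested the medians were 0.19 for 4980 genes under 2000 bases and -0.07 for 7564 longer ones. Across genes, which are not independent replicates and share the same pair of libraries, Spearman's rho of the ratio with length was -0.25 over all genes tested and -0.35 over the 40 members. Among short members Txn1, Prdx5, Gpx4 and Mgst1 were highest, from 0.90 to 1.14, while Nqo1, Sqstm1 and Gstm1 lay furthest the other way, from -1.31 to -0.89. Among longer ones Bach1, Txnip and Keap1 were highest, from 0.63 to 0.91. With a trend on GC content and length removed, which was tried after the data had been seen, 36 of the 40 kept their direction, the others being Gstp1, Gsto1, Prdx1 and Tkt. The split was then 21 higher in replicate 1 and 19 in replicate 2. The deposited effective lengths of the second quantification imply mean fragments of 316 bases in replicate 1 and 241 bases in replicate 2. The part of fragment length in these ratios was not tested.

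**Figure D3:**
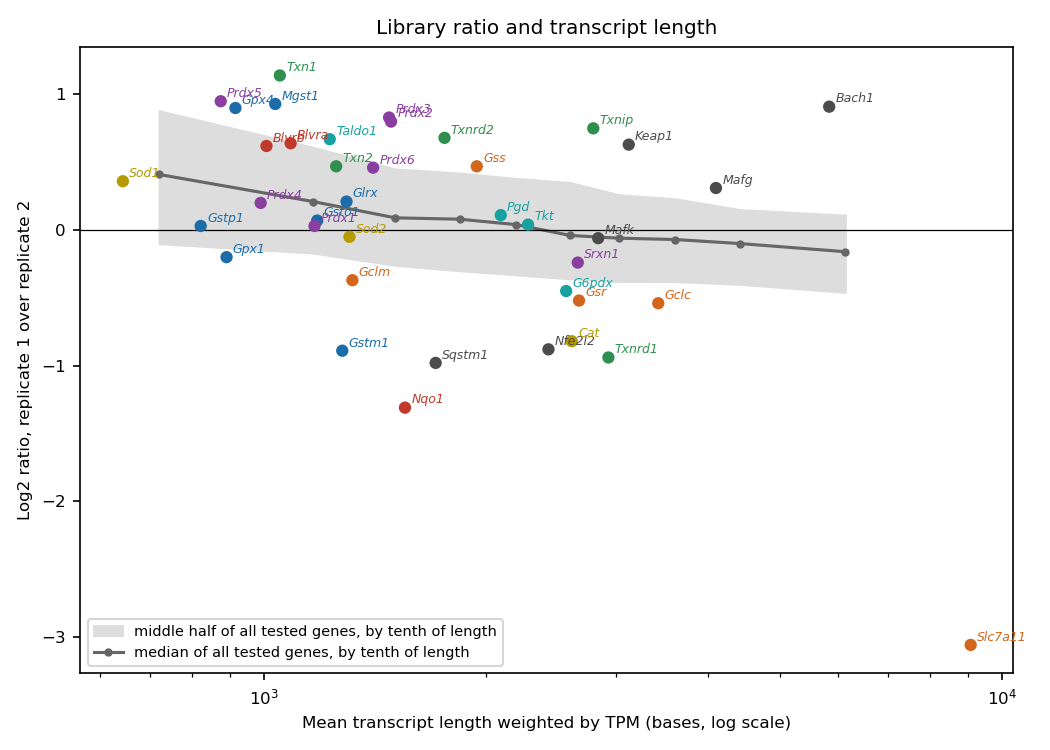
Log2 ratio of replicate 1 over replicate 2 against the mean transcript length of the gene (bases, log axis) for the 40 genes (points, coloured by role), with the median (line) and the central range between quartiles (grey) of all tested genes in 10 length bins. The line runs from 0.41 in the shortest bin to -0.16 in the longest, and Slc7a11 lies far below it at -3.06.

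Transcript shares were read next, because a gene's level sums over spliced and unspliced forms. The leading transcript held under 90% of the gene's abundance in either library for 22 of the 40 members. The same share over all genes was not computed, so this count cannot be read as a trait of the members. Those of the 22 with the highest levels are described, with Gclm and Prdx6 added after their values were seen. A retained-intron transcript is one that the annotation lists as keeping part of an intron. In Sqstm1 the spliced transcript Sqstm1-202 held 93.1% of abundance in replicate 1 and 66.1% in replicate 2. Its 3 retained-intron transcripts held 0.860% in replicate 1 and 30.6% in replicate 2. As a share of reads they were far smaller, 74 of 53370 in replicate 1, or 0.139% (exact 95% interval 0.109 to 0.174%), and 3474 of 71037 in replicate 2, or 4.89% (4.73 to 5.05%). TPM divides by length, and Sqstm1-206 is 457 bases long, against 2037 for Sqstm1-202. The second quantification gave 2.24% and 25.7% of abundance. On either measure the share was higher in replicate 2.

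Gclm-205, a retained-intron form of 495 bases, had 0 reads in replicate 1 and 51 in replicate 2, where it held 26.0% of abundance and 6.51% of reads (4.89 to 8.48%). In replicate 1, 0 of 903 reads gives an exact 95% upper limit of 0.408%. Pgd retained-intron forms held 2.85% of abundance in replicate 1 and 16.9% in replicate 2, with 1.37% and 6.44% of reads, and 19.2% and 28.6% of abundance in the second quantification. These 3 genes were the members whose retained-intron share differed by 10 percentage points or more, 3 of 20 with such a transcript and at least 10 TPM (15.0%), against 11.0% of 3952 genes. Of the 435 genes past this mark, 145 had the larger share in replicate 1 and 290 in replicate 2. The count of members was near that of all genes.

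Sod2 was different, since its retained-intron share was high in both libraries, at 52.7% and 51.0% of abundance. The second quantification gave 54.6% and 49.0%. The form Sod2-204 of 644 bases alone held 44.9% and 44.6%. By reads, retained-intron forms held 4606 of 28242 in replicate 1, or 16.3% (15.9 to 16.7%), and 3323 of 19685 in replicate 2, or 16.9% (16.4 to 17.4%). The coding transcript Sod2-201, 5861 bases long, held 9.57% and 8.62% of abundance but 51.2% and 47.4% of reads. Most of the TPM of Sod2 therefore came from short annotated forms, and its rank by TPM rests on them. The median retained-intron share over all genes with such a transcript was 1.48% and 1.24%.

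The boundaries that these transcripts read through are shown because they are the sequence by which such reads are told from spliced ones. Each line gives 30 bases of a GENCODE M21 transcript on the strand of the gene, with exon bases in lower case and retained intron bases in capitals.
Sqstm1-206, chr11:50203020-50203049, minus strand: CTTTCTCCTCTCTAGgcattgaggttgaca
Sqstm1-203, chr11:50202384-50202413, minus strand: cacatctcccaccagGCATGTGGTCACCAG
Gclm-205, chr3:122261853-122261882, plus strand: CTTTTCGTTTTCCAGcaaaactgttcattg
Pgd-205, chr4:149160044-149160073, minus strand: ccctgctgtgactggGCAAGTTCTGGGCTA
Sod2-204, chr17:13010622-13010651, plus strand: gtggagaacccaaagGTTGGTATAAGCTGC
Sod2-203, chr17:13010505-13010534, plus strand: TATTTTATATTTCAGgagatgttacaactc
Sqstm1-206 starts inside intron 5 of 7 and holds its last 84 bases, and Sqstm1-203 ends inside intron 7 and holds its first 87. Gclm-205 holds the last 89 bases of intron 3 of 6. Pgd-205 holds the first 132 bases of intron 6 of 12. Sod2-204 holds the first 115 bases of intron 3 of 4, and Sod2-203 the last 180 of intron 2. Each of the 6 thus holds 84 to 180 intron bases next to an exon, from introns of 1451 to 2988 bases. The introns that Sqstm1-203 and Pgd-205 enter begin with GC, and the one that Sod2-204 enters begins with GT.

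**Figure D4:**
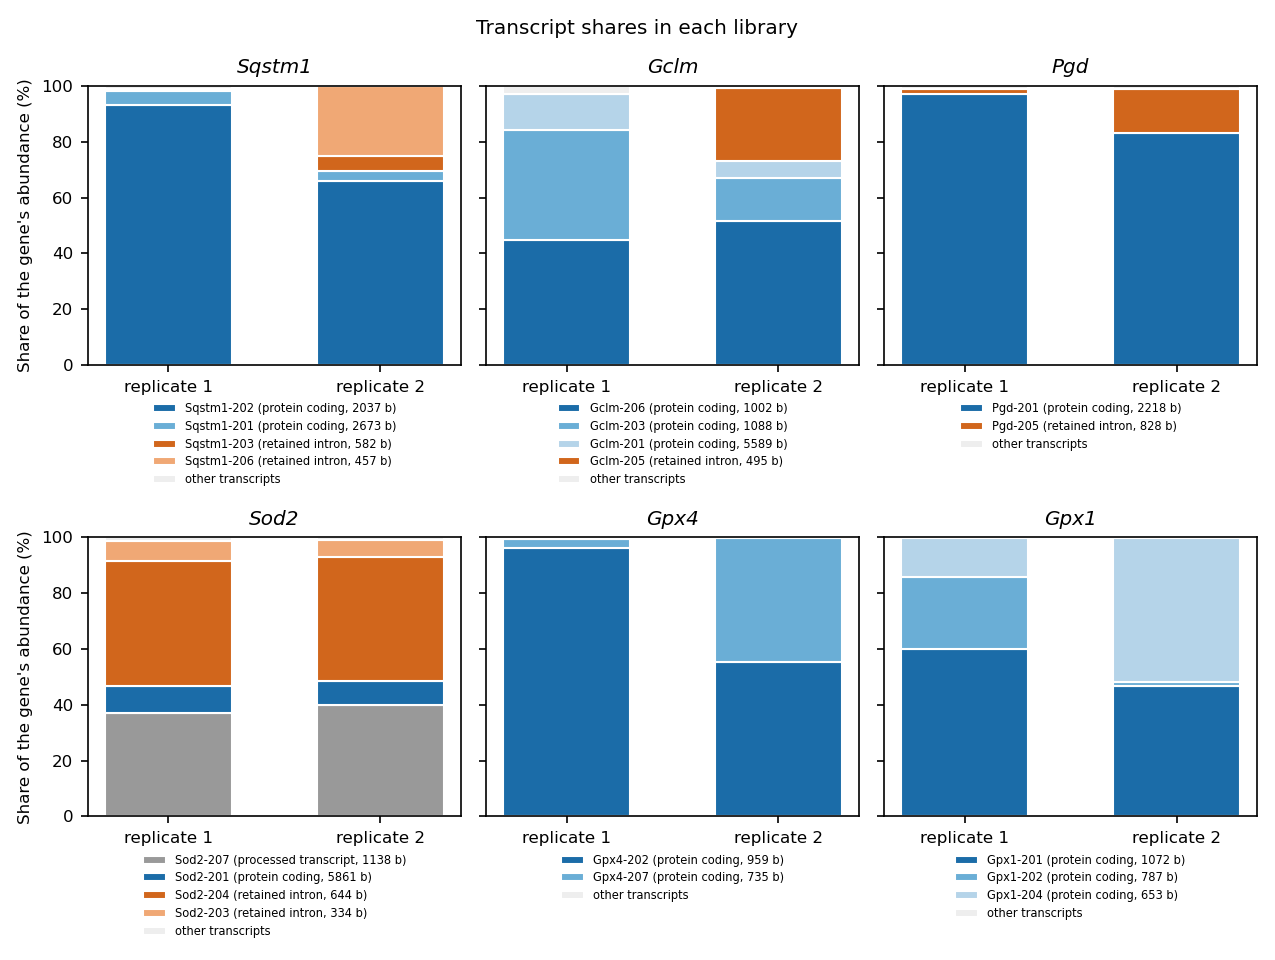
Share of each gene's abundance (percent) held by its annotated transcripts in replicate 1 and replicate 2 for Sqstm1, Gclm, Pgd, Sod2, Gpx4 and Gpx1, with coding transcripts in blue, retained-intron ones in orange and other noncoding ones in grey. The orange share is larger in replicate 2 for Sqstm1 (0.860% in replicate 1 and 30.6% in replicate 2), Gclm and Pgd and nearly equal for Sod2, while Gpx4 and Gpx1 differ among coding transcripts.

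Other members differed among coding transcripts. Gpx4-202 held 96.4% of Gpx4 abundance in replicate 1 and 55.3% in replicate 2, where Gpx4-207 held 44.4%. Gpx1-204 held 14.0% of Gpx1 in replicate 1 and 51.7% in replicate 2, while Gpx1-202 held 25.7% and 1.53%. For Prdx5, Prdx5-203 held 21.8% and 42.4%, and the leading Prdx5-201 held 39.0% and 32.8%. With Sqstm1 and Gclm, these made 5 members with any transcript 20 percentage points or more apart, of 31 with several transcripts and at least 10 TPM (16.1%), against 18.7% of 5698 genes. In 4 of the 5 the transcript that gained most in replicate 2 was the shorter one, as in 74.7% of all 1065 such genes, Prdx5 being the other. Replicate 2 also had the shorter implied fragments, 241 bases against 316 in replicate 1. Between genes the direction was the other one, since genes under 2000 bases leaned to replicate 1. Their median log2 ratio was 0.19, against -0.07 for longer genes. The part of fragment length in these shares was not tested.

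Prdx1 was split between the short Prdx1-205 of 611 bases, at 58.3% and 68.7% of abundance, and Prdx1-204 of 2294 bases, which held 79.7% and 69.6% of reads. Blvrb-201 held 97.1% and 77.1% of Blvrb, with Blvrb-202 at 0.390% and 20.2%. Glrx-201 held 87.3% and 99.4% of Glrx, and G6pdx-201 held 89.8% and 97.4% of G6pdx. Prdx2-201 was steady at 87.7% and 86.7% of Prdx2. Besides Sod2, the leading transcript was not protein coding in 2 members, and the share of all genes with such a leading transcript was not computed. Tkt-209, a processed transcript, held 68.4% and 70.4% of Tkt, with the coding Tkt-201 at 24.8% and 28.7%. Prdx6-208, listed as a target of nonsense-mediated decay, held 35.6% and 46.6% of Prdx6, with the coding Prdx6-202 at 30.6% and 13.4%. For these genes the TPM of the gene is not that of its coding transcripts.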

How the data were processed

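RNA of 2 libraries of 1 group was analysed, with 3 deposited tables each (mm10, GENCODE M21, per the labels). The deposited gene tables give expected counts (estimates that can be fractional), TPM and FPKM. Per the file headers, the transcript table also gives isoform shares in percent. Another deposited transcript table, the second quantification, holds estimated counts, TPM and effective lengths, which are other values in bases, and was summed to genes. Aligner, counter and strand use were not given in the sources used here.

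Of 81881 table rows, 55536 were annotated genes, and the tRNA and spike-in rows were left out. Levels are deposited TPM. Ratios used TMM from edgeR 4.0.16 in R 4.3.3 with unrounded counts, a prior of 0.5 reads and a mean expected count of at least 10; this step was tested on simulated data. With 1 group no test was run. Promoters were matched by symbol to RefSeq GRCm38.p6, and near-identical copies (95% identity over 200 bases) were found with blastn 2.17.0 among GENCODE M21 transcripts. The alternatives tried were size factors of DESeq2 1.42.0, scaling to totals, TPM ratios, other count filters, pseudocounts, FPKM, the second quantification, rescaled TPM and single libraries.

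Every member was named, with the 3 genes of highest mean TPM in each other list and up to 12 members with a leading transcript under 90%. Members and lists were chosen with earlier results of these data known.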

Additional observations from a re-analysis of the deposited data

How the results depend on the processing

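The counts of members at 1, 10 and 100 TPM stayed within 1.5 times under every alternative run, and the directions that turned were those of Mafk, Sod2, Prdx1, Pgd and, with the GC and length trend removed, Gstp1, Gsto1, Prdx1 and Tkt. Members at 2-fold or more numbered 3 (7.50%, against 11.3% of all genes). They numbered 6 (15.0%, against 14.1%) with the TPM ratio and 6 (15.0%, against 9.90%) without the GC and length trend, which was chosen after seeing the data. The TPM ratio added Sqstm1, Mgst1 and Txnrd1, and removing the trend added Sqstm1, Bach1 and Gstm1; the cause was not tested. The median log2(TPM + 1) was 6.36, and 5.80 with FPKM, which is scaled differently. The mean share of reads in members was 0.744%, and 0.795% over nuclear protein-coding genes, a smaller denominator. The retained-intron share of Sod2 was 51.9% of abundance on average and 16.6% of reads, since the forms differ in length. With 1 library left out, members at 1 TPM numbered 38 to 40, at 10 TPM 33 to 36 and at 100 TPM 18, other pathway genes at 10 TPM 53 to 55, the median log2(TPM + 1) 6.21 to 6.49, and the retained-intron shares were 0.860 to 30.6% for Sqstm1, so that 1 library decides it, and 51.0 to 52.7% for Sod2. No paired analysis was possible because there is 1 group. Depth limits Nqo1 and Gstp1, with 22 to 104 reads, and 2 libraries give no measure of spread beyond their own distance.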
